A study of Mus musculus with 4 samples.

Results

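Tensile strain was compared with no treatment in MC3T3-E1 cells kept in ordinary medium, with 1 RNA sequencing library on each side. MC3T3-E1 is a mouse pre-osteoblastic line from skull bone that can mature into osteoblasts; the labels give its genotype as WT. The strained cells received 2500 microstrain at 0.5 Hz for 1 h per day, and the control cells received none. All cells were grown in DMEM with 10% serum. A further pair of libraries, from cells kept in medium conditioned by the human prostate cancer line PC-3 without and with strain, shares no library with this comparison and is set beside it. Depth was 10997085 counts in the control, 10722179 with strain, 10659166 in conditioned medium and 10007546 with both. How many days the cells were strained, and how long before harvest, is not given in the sources used here. The table names its libraries by the letters L, T, LT and O. L was read as loading and O as the control. Should T mean tensile instead, every value given for strain would belong to conditioned medium and the reverse. With 1 library a group, strain and any difference of culture, day or batch cannot be told apart.

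Every gene with at least 30 counts in the higher of the strain and control libraries was compared, which gave 12025 of the 41288 genes in the table. Levels are RPKM, reads scaled to gene length and library total. A fold is the ratio of a gene's shares of its library's counts, and the bracketed values are its 95% counting interval, which covers the sampling of reads and not the spread between cultures. A gene was called where its fold was at least 1.5 either way with an interval that excluded 1. No replicate check and no p-value can be had from this design. Fewer cells that express a gene and less RNA per cell cannot be told apart.

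Osteoblasts secrete and mineralise the bone matrix, and those that become buried in it turn into osteocytes, the main load-sensing cells of bone. Strain on such cells opens ion channels and engages integrins, and signals through calcium, prostaglandins, Wnt ligands and MAP kinases reach the nucleus. Immediate early genes such as Fos and Egr1 respond first and briefly, while matrix genes, growth factors and cell division genes follow later.

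With strain, 178 genes were called higher and 178 lower, or 1.48% of the tested genes in each direction. The median log2 fold over all tested genes was -0.03. Folds were above 1 in 42.9% of them and below 1 in 57.1%. Intervals lay wholly above 1 in 9.72% and wholly below 1 in 16.1%. The class counts in the paragraphs that follow are to be read beside these shares. With TMM scaling, 229 were higher and 140 lower, so 62.1% of calls lay upward in place of 50%; without the 100 most abundant genes in the totals, 221 and 144, or 60.5%. The calls differed by depth. Of genes with 30 to 126 counts in the higher library, 4.39% were called higher and 5.67% lower; of those with 1107 counts or more, 0.582% and 0.333%. The median fold of the called genes was 1.73 upward and 1.71 downward. Of the genes called higher 35 belonged to at least 1 of the 61 gene lists examined, and of those called lower 25. The share of all tested genes in a list was not computed, so these numbers do not set the called genes apart from the rest. At the count minimum, the 48 genes with exactly 30 counts had a median log2 fold of -0.32 and the 54 genes just under it, with 29, a median of -0.07.

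**Figure D1:**
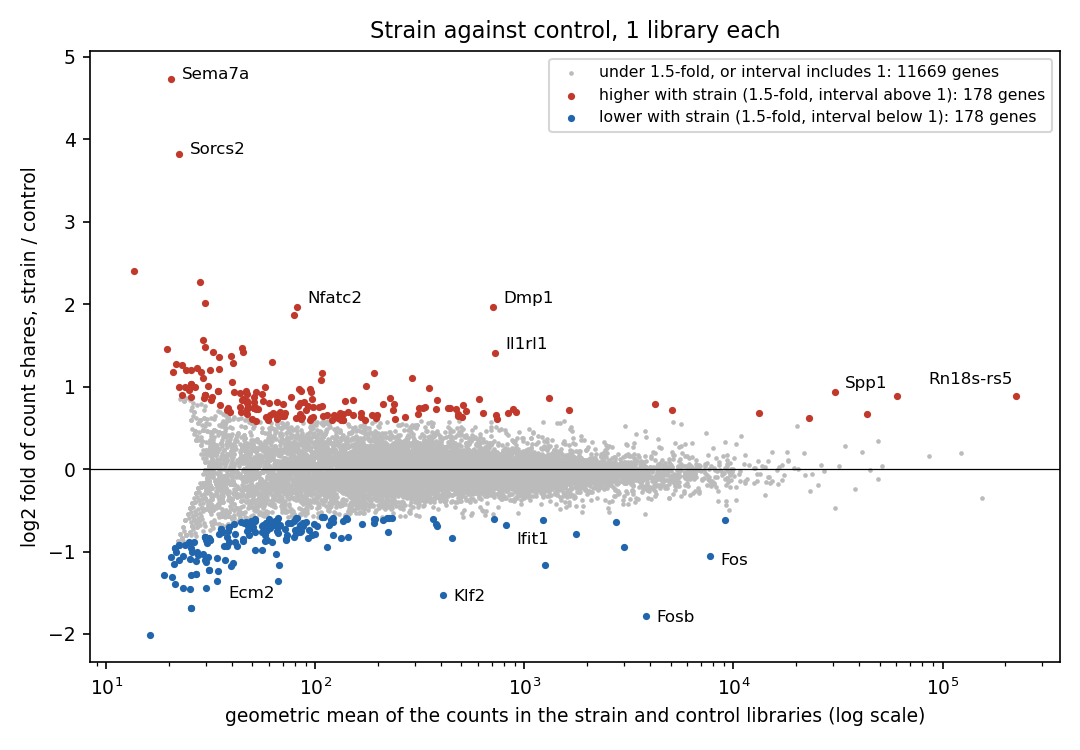
Log2 fold of count shares, strain over control (vertical axis), against the geometric mean of the counts in both libraries (horizontal log axis), 1 point for each of 12025 genes. Red points are the 178 genes called higher and blue points the 178 called lower; the points fan out at low counts, and Sema7a and Sorcs2 stand above all others.

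The share of counts on 7 gene models with ribosomal RNA-like signal was 2.56% in the control, 4.56% with strain, 3.44% in conditioned medium and 5.47% with both. All 7 were called higher with strain; they were grouped after their values were seen. Rn18s-rs5, a sequence related to the small-subunit ribosomal RNA, had 167025 counts in the control and 299991 with strain, a fold of 1.84 (1.83 to 1.85). The overlapping LOC101056014 was at 1.85 (1.82 to 1.87), Lars2 at 1.59 (1.57 to 1.61), and the other 4 at 1.54 to 1.65. Leaving these models out of the totals gave 209 genes higher and 146 lower. Longer genes lay lower as well: the median log2 fold was 0.01 in gene models of 1929 bases or less and -0.07 in those of 6235 or more. The part of ribosomal RNA carry-over or gene length in the results below was not tested, and folds close to 1 are to be read beside them.

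Cell type markers fitted the label in part. The 10 osteoblast markers summed to 8393 RPKM in the control and 8825 with strain, but the late osteoblast genes were low. Bglap, which encodes osteocalcin, had 5 counts in each library, and Ibsp, bone sialoprotein, 3 in the control and 1 with strain. Alpl, the alkaline phosphatase of mineralising osteoblasts, had 32 and 31 counts. The 6 osteocyte markers summed to 121 and 167 RPKM, with Mepe and Sost at 0 counts in both libraries. The 8 chondrocyte markers summed to 35.2 and 31 RPKM, with Col9a1 at 0, and the 3 tenocyte markers to 11.4 and 12.8, with Tnmd at 0. Macrophage and osteoclast markers gave 7.79 and 7.32 RPKM with Ptprc, Adgre1 and Acp5 at 0, skeletal muscle 3.73 and 3.22 with Myod1 and Myog at 0, and adipocyte 0.165 and 0.488 with Adipoq and Pparg at 0. Endothelial markers gave 0.469 and 0.658, with Kdr at 0, and epithelial 0.317 and 0.126, with Epcam and Krt18 at 0.

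The matrix gene with the largest fold among the listed ones belonged to the osteocyte. Dmp1 encodes dentin matrix protein 1, an acidic phosphoprotein that osteocytes place in the matrix around them. It had 362 counts (10.6 RPKM) in the control, 1379 (41.2 RPKM) with strain, 176 (5.3 RPKM) in conditioned medium and 165 (5.29 RPKM) with both. The strain library alone stood high, at a fold of 3.91 over the control with an interval from 3.48 to 4.4, while the fold within conditioned medium was 0.999 (0.803 to 1.24). Phex, an endopeptidase-like membrane protein of phosphate control in osteocytes, had 41 counts in the control, 80 with strain, 84 in conditioned medium and 79 with both. Its fold with strain was 2 (1.36 to 2.99), and the control was the low library of the 4. The other members above the minimum, Fam20c and Pdpn, had folds of 1.26 (1.15 to 1.39) and 1.13 (1.07 to 1.2). All 4 of these osteocyte genes lay above 1 and 2 of them were called; the Phex call was lost on log2(RPKM + 1).

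Spp1, or osteopontin, a secreted phosphoprotein that binds integrins and mineral, lies close to Dmp1 on chromosome 5. It stood at 1223 RPKM in the control, 2338 with strain, 3455 in conditioned medium and 3412 with both, on 22303 to 61066 counts. The fold with strain was 1.91 (1.88 to 1.94), so the strain library lay between the control and the conditioned-medium pair. Apart from Spp1, no member of the osteoblast list was called, and 12 of its 17 members above the minimum lay below 1, with a median log2 fold of -0.11. Runx2, the master transcription factor of the lineage, was 1.14-fold lower (1.06 to 1.23), at 14.3 against 16.3 RPKM, and Sp7 (osterix) 1.04-fold lower (0.801 to 1.36). The type I collagen gene Col1a1 had a fold of 1.21 (1.19 to 1.23) and Sparc, a collagen- and mineral-binding glycoprotein, 1.15 (1.13 to 1.18). Postn, or periostin, was lower instead, by a factor of 1.28 (1.27 to 1.29), from 4735 to 3711 RPKM. Col1a2, the second chain of type I collagen, had a fold of 1.12 (1.11 to 1.13). Ogn, osteoglycin, chosen after its values were seen, was 1.31-fold lower (1.27 to 1.35). The osteoblast list was therefore split, with its most different member upward and most of the others slightly downward. Of its 17 members 70.6% lay below 1, against 57.1% of all tested genes. Intervals lay wholly below 1 in 7 members and wholly above 1 in 5.

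The promoter windows of this pair of matrix phosphoprotein genes are shown because RUNX factors are known regulators of osteoblast genes. The windows come from RefSeq, build GRCm38.p6, and run from 250 bases before a gene start to 50 after it. Capitals mark the RUNX site AACCACA on either strand, found in 5.25% of 25754 promoters. The Dmp1 window, chr5:104197325-104197624 on the plus strand, held 0 copies, and the Spp1 window, chr5:104434861-104435160 on the plus strand, held 1.
Dmp1: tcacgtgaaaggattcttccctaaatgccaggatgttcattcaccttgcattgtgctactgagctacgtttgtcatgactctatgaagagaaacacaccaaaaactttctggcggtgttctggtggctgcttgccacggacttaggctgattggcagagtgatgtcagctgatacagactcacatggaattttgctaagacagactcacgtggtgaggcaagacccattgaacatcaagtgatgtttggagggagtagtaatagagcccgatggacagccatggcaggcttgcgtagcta
Spp1: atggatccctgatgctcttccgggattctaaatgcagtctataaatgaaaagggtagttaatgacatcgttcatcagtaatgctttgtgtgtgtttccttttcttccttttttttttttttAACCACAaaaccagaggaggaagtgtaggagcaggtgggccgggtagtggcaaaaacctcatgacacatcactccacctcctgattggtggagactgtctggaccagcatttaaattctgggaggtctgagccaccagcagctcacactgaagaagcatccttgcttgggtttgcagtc

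Phosphate and mineralization genes outside these lists also lay mostly above 1, with 8 of 10 members and a median log2 fold of 0.18. The single call was Fam20a, a pseudokinase partner of the secretory kinase encoded by Fam20c, with 25 counts in the control and 47 with strain, a fold of 1.93 (1.16 to 3.27). Mgp, the matrix Gla protein that inhibits mineralization, had 712 RPKM in the control, 1038 with strain, 1120 in conditioned medium and 1064 with both. Its fold of 1.46 (1.4 to 1.51) stayed under the call. Ecm1, a secreted glycoprotein, stood at 1.21 (1.17 to 1.26). Ank, a transporter of the mineralization inhibitor pyrophosphate chosen after its values were seen, had a fold of 1.41 (1.31 to 1.51).

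Fibrillar collagen chains lay above 1 in 7 of 10 members, with a median log2 fold of 0.30. Col2a1, the chain of cartilage collagen, had 42 counts in the control, 149 with strain, 36 in conditioned medium and 35 with both. Its fold of 3.64 (2.57 to 5.25) was the single call of the class, and the strain library stood apart from the other 3. Of the 5 cartilage genes above the minimum 2 lay above 1, with a median log2 fold of -0.05; Sox9, the cartilage transcription factor, was 1.22-fold lower (1.13 to 1.31) and Col11a1 1.03-fold lower (0.985 to 1.08). The chondrocyte marker sum was lower too, as given above. Col3a1, Col5a3 and Col5a2, chosen after their values were seen, were at 1.44 (1.41 to 1.46), 1.43 (1.36 to 1.51) and 1.26 (1.22 to 1.3). Col3a1 stood at 278 RPKM in the control and 400 with strain, with 402 in conditioned medium and 450 with both. Col24a1 was 1.49-fold lower (1.32 to 1.69), so the class did not lie all on one side. Among the other collagens 10 of 17 lay above 1, and Col7a1, the anchoring fibril chain, was called at 1.79 (1.55 to 2.08) on 290 and 507 counts. The most abundant chains of that list, Col6a3 and Col6a1, were at 1.03 (1.02 to 1.05) and 1.15 (1.13 to 1.18). The basement membrane chain Col4a1, chosen after its values were seen, had a fold of 1.48 (1.42 to 1.54).

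Of the matricellular and elastic-fibre glycoproteins, 15 of 23 lay above 1 with a median log2 fold of 0.04. Tnc, tenascin C, an adhesion-modulating protein of loaded and healing tissue, had 3.02 RPKM in the control and 5.06 with strain, a fold of 1.67 (1.42 to 1.97). Tgfbi, a secreted integrin ligand induced by TGF-beta, had 5.81 and 10.6 RPKM, a fold of 1.82 (1.51 to 2.21). In both cases the strain library was the highest of the 4. The matrix protease list, with MMPs, ADAMTS enzymes, plasminogen activators and their inhibitors, had 18 of 28 members above 1 and 3 calls. Adamts7 (64 and 106 counts) and Adamts12 (185 and 297 counts), which cleave the cartilage protein COMP, were at 1.7 (1.23 to 2.35) and 1.65 (1.37 to 1.99). Adamts1, a proteoglycan-cleaving enzyme, went the other way at 214 RPKM in the control, 139 with strain, 126 in conditioned medium and 130 with both. It was 1.54-fold lower (1.49 to 1.58), with the control standing above the other 3 libraries. With TMM scaling, the Adamts1 difference no longer reached 1.5-fold.

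Small leucine-rich proteoglycans, which bind collagen fibrils and growth factors, lay below 1 in 8 of 11 members, with a median log2 fold of -0.21. Ecm2, the called member, had 108 counts in the control, 41 with strain, 47 in conditioned medium and 35 with both, and was 2.57-fold lower with strain (1.78 to 3.78). It overlaps Cenpp on the opposite strand, and how the counting used strand is not given in the sources used here. The most abundant members hardly differed: Dcn, decorin, was 1.01-fold lower (0.997 to 1.03) and Bgn, biglycan, had a fold of 1.07 (1.05 to 1.09).

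**Figure D2:**
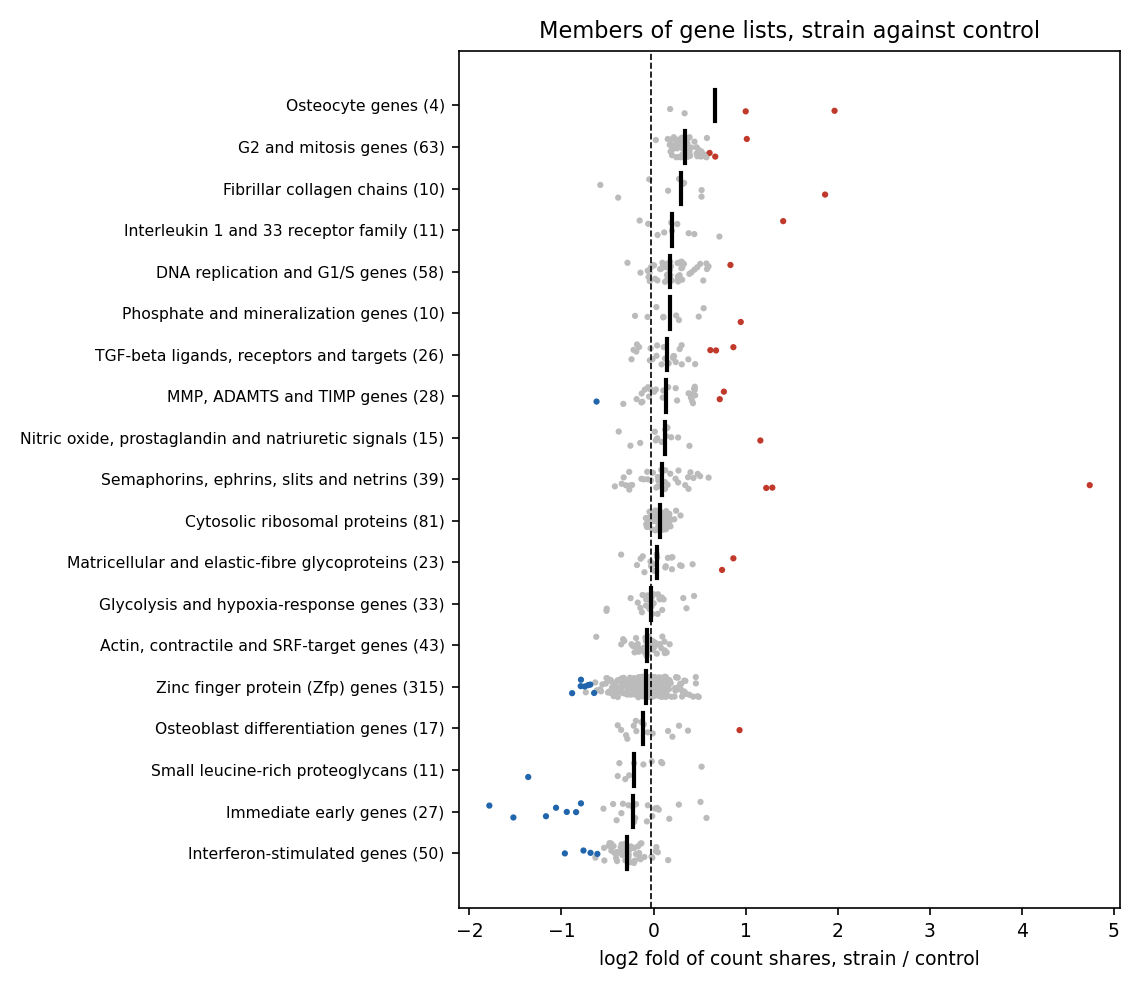
Log2 fold of count shares, strain over control (horizontal axis), for the members of 19 gene lists with at least 30 counts; the number of members is in brackets. Red and blue points are called members, black bars the list medians and the dashed line the median of all genes; G2 and mitosis genes lie to the right of 0 and interferon-stimulated genes mostly to the left.

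Cell division genes lay higher with strain as a body. All 63 genes of the G2 and mitosis list had folds above 1, against 5155 of 12025 tested genes, with a median log2 fold of 0.34. The interval lay wholly above 1 for 54 of the 63 (9.72% of all tested genes) and below 1 for 0 (16.1% of all). The folds were small, so that 3 were called. Cdc25c, the phosphatase that activates CDK1 at mitotic entry, had 125 counts in the control, 246 with strain, 90 in conditioned medium and 75 with both, a fold of 2.02 (1.62 to 2.52). Cenpa, the centromeric histone H3 variant, had 386, 599, 209 and 232 counts, a fold with strain of 1.59 (1.4 to 1.81). Kif2c, a microtubule-depolymerising kinesin, had 197, 293, 110 and 118 counts, a fold of 1.53 (1.27 to 1.84), a call lost on log2(RPKM + 1). In each of these genes the strain library was the highest and both conditioned-medium libraries lay under the control. The proliferation marker Mki67, chosen after its values were seen, had a fold of 1.21 (1.16 to 1.26) on 5042 and 5942 counts. The lowest member, the spindle checkpoint gene Bub3, was at 1.02 (0.929 to 1.11).

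DNA replication and G1/S genes shifted less, with 50 of 58 above 1 and a median log2 fold of 0.18. The interval lay above 1 for 22 of them (37.9%, against 9.72% of all tested genes) and below 1 for 1 (1.72%, against 16.1%). Rpa2, a subunit of the single-strand DNA-binding replication protein A, was the single call, with 115 counts in the control and 200 with strain, a fold of 1.78 (1.41 to 2.26). The most abundant members, the ribonucleotide reductase gene Rrm1 and the methyltransferase gene Dnmt1, were at 1.01-fold lower (0.951 to 1.06) and at a fold of 1.12 (1.04 to 1.21). The partner subunit gene Rpa1, chosen after its values were seen, was 1.03-fold lower (0.948 to 1.12). Of the histone genes 14 of 17 lay above 1, with a median of 0.19 and Cenpa as the single call; the replacement histone gene H3f3b was at 1.19 (1.16 to 1.23) and the linker histone gene H1f0 at 1.1 (1.06 to 1.14). Further division genes outside the lists were called higher and were picked after their values were seen. They include Cep55 of the cytokinetic midbody at 1.57 (1.38 to 1.79), the replication licensing regulator Dtl at 1.55 (1.37 to 1.76), the recombination factor Rad51ap1 at 1.73 (1.42 to 2.11) and the kinesin Kif18a at 1.55 (1.24 to 1.94).

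Promoters of late cell cycle genes are known for the CHR element and for CCAAT boxes, so the windows were searched for TTTGAA (CHR) and CCAAT on both strands, with any overlap allowed. The CHR letters were present in 37 of 52 mitosis promoters (71.2%), in 12% of the promoters of genes at the count minimum and in 18% of all 25754. Counting only matches from 50 bases before to 50 after the start, they were in 32 of the 52 (61.5%), in 4 of 47 replication promoters (8.51%) and in 4.83% of all. CCAAT was in 75% of the mitosis promoters, 63.8% of the replication promoters and 38.2% of all. Among genes called higher with strain as a whole, 11.5% of 130 promoters held the CHR letters and 38.5% held CCAAT. The windows of 2 list members are printed, from RefSeq GRCm38.p6, with CHR and CCAAT matches in capitals. Both hold a CHR match and have a promoter start close to the table's gene start. They serve as examples, and members with larger folds are not all shown. The Cenpa window is chr5:30666636-30666935 and the Ube2c window chr2:164769679-164769978, both on the plus strand, with 1 CHR match each and 2 and 6 CCAAT matches. Ube2c, a ubiquitin-conjugating enzyme of mitotic exit, had 360 counts in the control and 523 with strain, a fold of 1.49 (1.3 to 1.71).
Cenpa: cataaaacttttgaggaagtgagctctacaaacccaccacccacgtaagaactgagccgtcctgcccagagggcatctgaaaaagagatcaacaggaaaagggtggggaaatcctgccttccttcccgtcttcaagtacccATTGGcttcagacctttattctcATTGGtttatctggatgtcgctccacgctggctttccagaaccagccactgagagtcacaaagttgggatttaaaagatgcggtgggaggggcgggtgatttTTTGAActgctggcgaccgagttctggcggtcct
Ube2c: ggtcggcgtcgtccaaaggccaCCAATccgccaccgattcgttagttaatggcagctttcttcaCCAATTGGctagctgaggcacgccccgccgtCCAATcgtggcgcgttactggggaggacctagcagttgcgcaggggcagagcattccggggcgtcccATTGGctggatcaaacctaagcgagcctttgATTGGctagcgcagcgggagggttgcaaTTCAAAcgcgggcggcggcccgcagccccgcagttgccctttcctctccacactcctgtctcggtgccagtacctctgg

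Interferon-stimulated genes formed the class with the lowest median, -0.29 on the log2 scale. Of 50 members 46 (92%) lay below 1, against 57.1% of all tested genes. Intervals lay wholly below 1 in 35 (70%, against 16.1%), and 4 were called lower (8%, against 1.48%) and 0 higher. Ifit1, an antiviral protein that binds foreign RNA, had 36.1 RPKM in the control, 22.4 with strain, 11.8 in conditioned medium and 13.4 with both, and was 1.61-fold lower with strain (1.45 to 1.78). Parp14, an ADP-ribosyltransferase, had 292 counts in the control and 168 with strain and was 1.69-fold lower (1.4 to 2.06). The guanylate-binding protein gene Gbp7 was 1.53-fold lower (1.24 to 1.88), and Rsad2, or viperin, 1.95-fold lower (1.02 to 3.9) on 30 and 15 counts. The calls of Gbp7 and Rsad2 were lost with TMM scaling, and those of Parp14, Gbp7 and Rsad2 on log2(RPKM + 1). For Ifit1 and Parp14 the control was the highest of the 4 libraries, whereas Rsad2 was highest in conditioned medium, at 73 counts. The exceptions above 1 were Ifitm3 at 1.12 (1.08 to 1.16), Ifitm1, Irf1 and Samhd1, the last 3 at 1.02 to 1.03 with intervals that included 1. Outside the list, and picked after their values were seen, Gbp6 was 1.51-fold lower (1.26 to 1.83) and Gbp4 1.6-fold (1.11 to 2.32). Class I antigen presentation genes stood closer to the background, with 11 of 17 below 1, a median of -0.05 and 0 called in either direction; B2m, the light chain of class I molecules, was 1.17-fold lower (1.13 to 1.2) and H2-D1 had a fold of 1 (0.955 to 1.05).

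The interferon-stimulated response element is known from the promoters of interferon-induced genes, and its core was searched on both strands as 2 copies of GAAA with any 2 bases between them. The core was in 19 of 38 interferon-list promoters (50%) and in 3.45% of all. Of the genes called lower with strain, 8 of 112 promoters (7.14%) held them, and of those called higher, 5 of 130 (3.85%). The windows of the 2 called members with the most and the fewest counts are shown, from RefSeq GRCm38.p6 with the element in capitals. The Ifit1 window, chr19:34640639-34640938 on the plus strand, held 2 matches and the Rsad2 window, chr12:26456403-26456702 on the minus strand, 1.
Ifit1: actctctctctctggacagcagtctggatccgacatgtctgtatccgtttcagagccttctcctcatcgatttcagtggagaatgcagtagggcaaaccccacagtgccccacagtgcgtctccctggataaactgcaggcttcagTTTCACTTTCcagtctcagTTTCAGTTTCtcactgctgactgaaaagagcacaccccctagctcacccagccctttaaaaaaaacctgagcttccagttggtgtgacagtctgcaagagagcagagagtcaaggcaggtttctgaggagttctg
Rsad2: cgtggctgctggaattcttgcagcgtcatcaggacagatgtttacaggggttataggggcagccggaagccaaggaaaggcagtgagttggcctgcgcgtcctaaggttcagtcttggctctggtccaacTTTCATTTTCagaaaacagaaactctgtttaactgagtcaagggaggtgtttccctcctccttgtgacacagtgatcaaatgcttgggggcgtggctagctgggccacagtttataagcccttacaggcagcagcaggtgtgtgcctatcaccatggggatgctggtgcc

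The largest folds of all belonged to signalling genes on few counts. Sema7a, a membrane-anchored semaphorin that signals through integrins and plexin C1, had 4 counts in the control, 104 with strain, 17 in conditioned medium and 22 with both. Its fold of 26.7 has an interval from 10.1 to 99.7, and the strain library was the only high one. The control, at 0.108 RPKM, also lay under conditioned medium without and with strain, at 0.474 and 0.654 RPKM. Sorcs2, a sorting receptor of the VPS10 family, had 6, 83, 44 and 48 counts, a fold with strain of 14.2 (6.25 to 39.8). Here the control was the low library. On chromosome 9 Sema7a spans 57940135 to 57962865, and on chromosome 5 Sorcs2 spans 36017180 to 36398163, in the positions of the table, which are read as GRCm38. Of the semaphorin, ephrin, slit and netrin list 25 of 39 members lay above 1, with a median of 0.10. Unc5b, a netrin receptor, was at 2.45 (1.52 to 4.03) on 26 and 62 counts, and the ephrin receptor Epha1 at 2.34 (1.31 to 4.32) on 18 and 41. Epha1 overlaps the far more abundant Zyx on the opposite strand. The Sema7a receptor gene Plxnc1, chosen after its values were seen, was 1.2-fold lower (1.01 to 1.43).

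Nfatc2, a calcium- and calcineurin-dependent transcription factor, had 42 counts in the control, 160 with strain, 44 in conditioned medium and 48 with both, a fold of 3.91 (2.77 to 5.63). Lef1, a transcription factor of Wnt signalling, had 15, 59, 15 and 11 counts, a fold of 4.03 (2.26 to 7.66). In both the strain library stood alone. Lgr6, a receptor for R-spondins, had 6 counts in the control and 31 with strain, a fold of 5.3 (2.18 to 15.5). The Wnt list as a whole was balanced, with 12 of 24 members above 1 and Lef1 as the single call. Axin2, a direct Wnt target chosen after its values were seen, was 1.19-fold lower (0.939 to 1.51). The most abundant members were Ctnnb1, beta-catenin, 1.15-fold lower (1.11 to 1.18), and the Dickkopf-related Dkk3, at a fold of 1.03 (1 to 1.07).

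Il1rl1, the receptor for interleukin-33, had 448 counts in the control, 1159 with strain, 1136 in conditioned medium and 1168 with both. Its fold with strain was 2.65 (2.38 to 2.97), and the control alone was low. Of the interleukin 1 and 33 receptor family 9 of 11 members lay above 1, with a median of 0.20 and Il1rl1 as the single call; the receptor-associated kinase gene Irak1 was 1.04-fold lower (0.938 to 1.15). Tnfrsf1b, a TNF receptor, was the single call of the cytokine list, with 296 and 480 counts and a fold of 1.66 (1.44 to 1.93), while Csf1 and Cxcl12, the most abundant cytokines there, were 1.07-fold (1.03 to 1.11) and 1.06-fold (1.01 to 1.12) lower. Bdkrb2, the bradykinin receptor whose signal leads to prostaglandin and nitric oxide release, had 73 counts in the control, 159 with strain, 264 in conditioned medium and 262 with both. It was called at 2.23 (1.68 to 2.99), and 12 of the 15 genes of its list lay above 1. Its most abundant members, the prostaglandin E synthase gene Ptges and the receptor gene Ptgfr, were at 1.06 (1 to 1.13) and 1.3-fold lower (1.22 to 1.39). The prostaglandin synthase gene Ptgs2, chosen after its values were seen, had 1938 counts in the control and 1943 with strain, a fold of 1.03 (0.965 to 1.1).

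TGF-beta ligands, receptors and targets lay above 1 in 18 of 26 members, with a median of 0.14. Besides Tgfbi, the calls were Skil, a nuclear inhibitor of SMAD signalling and itself a TGF-beta target, at 1.6 (1.43 to 1.79) on 506 and 790 counts, and the activin-binding Fstl3 at 1.53 (1.19 to 1.98). Fstl3 overlaps Prss57 on the opposite strand. The receptor gene Tgfbr2, picked after its values were seen, was instead 1.14-fold lower (1.09 to 1.19). Among YAP pathway genes 12 of 22 lay above 1, and the single call was Ctgf, a secreted CCN protein of matrix production, at 12.7 RPKM in the control, 21.3 with strain, 16.9 in conditioned medium and 15.8 with both. Its fold was 1.67 (1.46 to 1.92). The related and more abundant CCN genes Cyr61 and Nov were 1.24-fold (1.21 to 1.27) and 1.38-fold (1.36 to 1.41) lower, so the CCN genes lay on both sides. Bone morphogenetic protein genes had 0 calls among 18, with 11 (61.1%) below 1, near the 57.1% of all tested genes. The target gene Id4 and the antagonist gene Chrdl1 were both 1.28-fold lower (1.23 to 1.33 and 1.22 to 1.34).

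Of the adhesion genes, 16 of 33 lay above 1. Itgb3, the beta chain of the vitronectin receptor that binds osteopontin, had 250 and 387 counts, a fold of 1.59 (1.35 to 1.87), and the laminin receptor chain Itga6 68 and 105, a fold of 1.58 (1.16 to 2.18). Panx3, a pannexin channel of osteoblasts, was 1.5-fold lower (1.14 to 1.99), a call lost under every other scaling tried. Actin, contractile and SRF-target genes lay below 1 in 31 of 43 members (72.1%, against 57.1% of all), with a median of -0.07 and 0 calls. Among all tested genes with 1107 counts or more 64.4% lay below 1, and among gene models of 6235 bases or more 67.9%. Cald1, caldesmon, was 1.18-fold lower (1.16 to 1.2) and Acta2, the smooth-muscle actin, 1.15-fold (1.13 to 1.17). In the channel list 8 of 20 members lay above 1, and Cacna1c, the pore subunit of an L-type calcium channel, was called at 1.88 (1.27 to 2.82) on 41 and 75 counts. The polycystin genes Pkd1 and Pkd2, its most abundant members, were 1.16-fold (1.11 to 1.2) and 1.09-fold (1.04 to 1.15) lower.

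**Figure D3:**
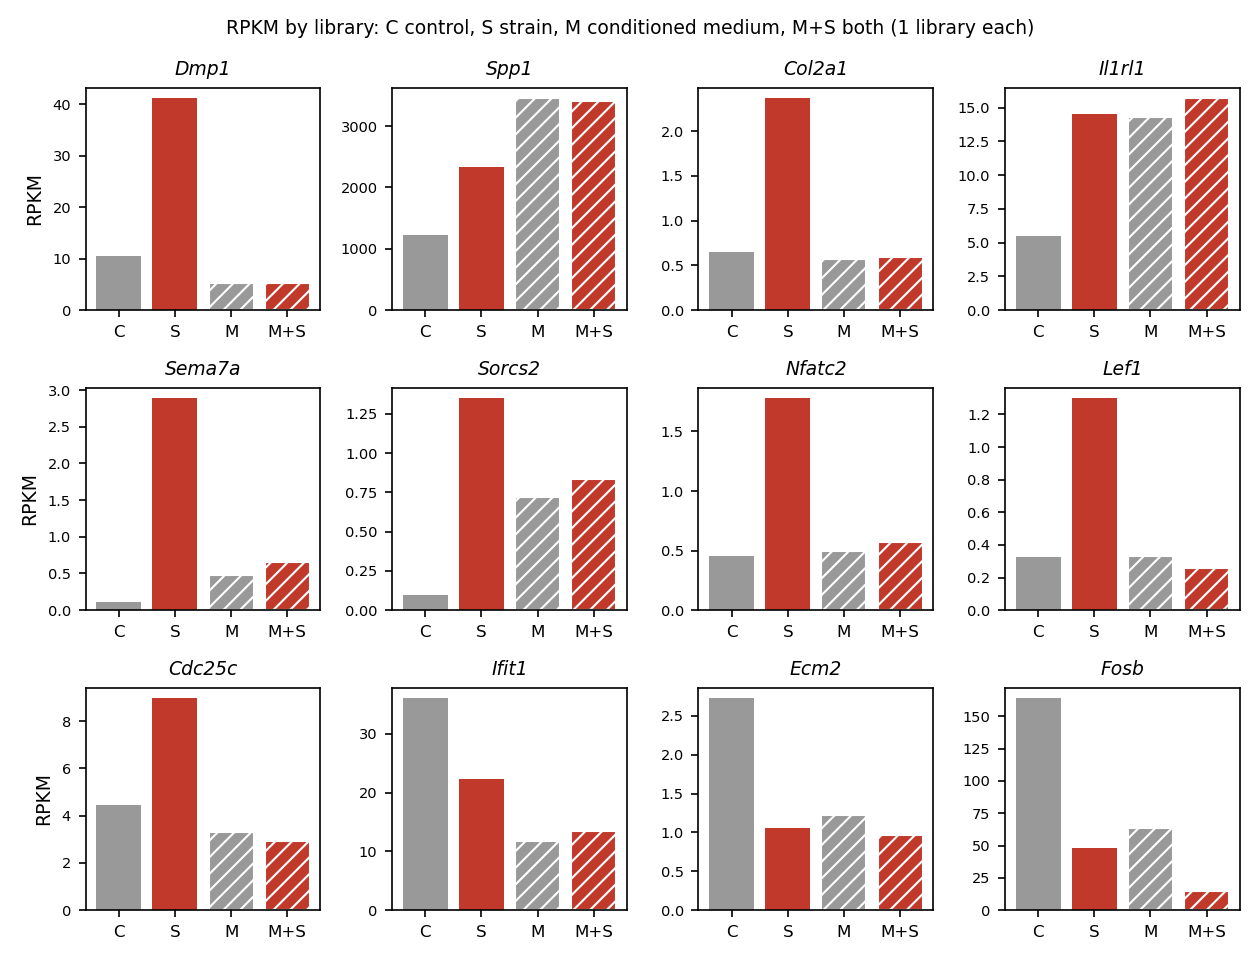
RPKM of 12 genes in the 4 libraries (bars, 1 library each, vertical axes from 0), with C the control, S strain, M conditioned medium and M+S both. Dmp1, Col2a1, Nfatc2 and Lef1 are high in the strain library alone, Spp1 and Il1rl1 are also high in both conditioned-medium libraries, and Ifit1, Ecm2 and Fosb are highest in the control.

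The immediate early list gave 7 calls, all lower, among 27 members (25.9%, against 1.48% of all tested genes), with a median of -0.23. They were Fosb, Klf2, Nr4a1, Fos, Dusp1, Egr3 and Zfp36. Arc, an activity-regulated gene of the same kind outside the list, had 55 counts in the control and 21 with strain and was 2.55-fold lower (1.52 to 4.45). Not all members went that way. Fosl1 and Klf10, chosen after their values were seen, had folds of 1.49 (1.34 to 1.66) and 1.42 (1.28 to 1.59). Fosl1 overlaps Ccdc85b on the opposite strand, which had 2326 counts in the control and 2759 with strain. Among ERK feedback genes 7 of 13 lay above 1, and Etv4, an ETS factor, was called at 2.67 (1.56 to 4.72) on 20 and 52 counts and the phosphatase gene Dusp4 at 2.29 (1.26 to 4.33) on 17 and 38. Dusp6, the best covered ERK feedback phosphatase and chosen after its values were seen, was 1.23-fold lower (1.17 to 1.3).

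Other genes with large differences were the single call of their list, belonged to a list called at about the background rate, or were in no list. Hmga1, an architectural chromatin protein, had 129 counts in the control and 281 with strain, a fold of 2.23 (1.81 to 2.77), while 10 of 14 genes of the high mobility group list lay above 1 with a median of 0.07; its relative Hmga2 was at 1.38 (1.29 to 1.47) and Hmgn1 at 1.07 (0.991 to 1.14). Hmga1 has near-identical copies that could share its reads. Anxa8, an annexin, had 201 and 420 counts, a fold of 2.14 (1.81 to 2.55), in a list with 5 of 10 members above 1, where Anxa1 and Anxa2 were at 1.01 (0.991 to 1.04) and 1.02 (0.987 to 1.06). Downward, the prolactin receptor gene Prlr had 101 counts in the control and 44 with strain and was 2.24-fold lower (1.56 to 3.27). Selenbp1, a selenium-binding protein, was 3.2-fold lower (1.73 to 6.31) on 46 and 14 counts, and Serp2 2.71-fold lower (1.55 to 4.93) on 50 and 18. The calcium-binding S100b was 1.52-fold lower (1.37 to 1.7), with 899 counts in the control, 575 with strain, 227 in conditioned medium and 212 with both; this call was lost with TMM scaling. S100a4 was 1.07-fold lower (1.02 to 1.11) and S100a6 at 1.08 (1.03 to 1.12). Outside the lists and picked after their values were seen, Sned1, a secreted matrix protein, was 1.57-fold lower (1.48 to 1.65) on 3493 and 2175 counts. Txnip, a thioredoxin inhibitor and glucose sensor gene picked likewise, had a fold of 1.72 (1.65 to 1.8) on 3257 and 5474 counts, beside 1.65 (1.5 to 1.82) for Gm15441 on its opposite strand. Solute carriers were called at about the background rate, with 2 of 174 (1.15%) higher and 3 (1.72%) lower against 1.48% of all genes each way, and 114 lay below 1. The 2 upward were Slc45a3 at 2.31 on 16 and 36 counts and Slc4a11 at 2.05 (1.13 to 3.84). The 3 downward were Slc6a18, Slc25a35 and Slc25a45, at 2.05-fold (1.16 to 3.75), 1.57-fold (1.07 to 2.32) and 1.53-fold (1.26 to 1.87) lower, the last of them a call lost with TMM scaling. In the lipid list 10 of 26 lay above 1, with the fatty acid carrier Fabp5 called at 1.53 (1.01 to 2.33) on 41 and 61 counts; Scd2 and Elovl6, fatty acid synthesis enzymes, were 1.05-fold (1.03 to 1.07) and 1.26-fold (1.21 to 1.3) lower.

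Cytosolic ribosomal protein genes lay slightly above 1 in 66 of 81 members, against 42.9% of all tested genes, with a median log2 fold of 0.07, a highest value of 0.29 and 0 calls. The interval lay wholly above 1 for 32 of the 81 (39.5%, against 9.72% of all) and below 1 for 1 (1.23%, against 16.1%). Among all tested genes with 1107 counts or more, these shares were 14.1% and 34.4%. Rplp0 had a fold of 1.04 (1.01 to 1.06) and Rpsa 1.1 (1.07 to 1.13). Other housekeeping classes had medians closer to 0. Medians of mitochondrial ribosomal protein genes (76 members), proteasome subunits (33), cholesterol synthesis genes (27) and ER chaperones (34) were 0.01, and that of nuclear-encoded respiratory chain subunits (76) 0.02. Ribosome biogenesis genes (38) had a median of 0.00 and glycolysis and hypoxia-response genes (33) -0.03. None of these other classes held a call in either direction. Of all tested genes 1.48% were called each way, but of those with 1107 counts or more 0.582% higher and 0.333% lower. An absence of calls in well-covered classes therefore sets them little apart. Downward, their most abundant members were Mrps17 at 1.14-fold (1.03 to 1.26), Hmgcs1 at 1.12 (1.06 to 1.19), Psmd1 at 1.1 (1.03 to 1.16), Atp5b at 1.07 (1.04 to 1.09), Ncl at 1.03 (0.988 to 1.07), Aldoa at 1.02 (0.994 to 1.05), Atp5a1 at 1.01 (0.976 to 1.04) and Pkm at 1.01 (0.98 to 1.04). Upward they were Hsp90b1 at 1.07 (1.04 to 1.09), Npc2 at 1.06 (1.01 to 1.12), Calr at 1.04 (1.01 to 1.07) and Psmb1 at 1.03 (0.964 to 1.1), with Mrps25 and Npm1 at 1. Of the 16 mitochondrial tRNA genes above the minimum, TrnS2 was called higher at 1.56 (1.1 to 2.22) and TrnP 1.78-fold lower (1.39 to 2.27).

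Long non-coding RNA genes lay lower than protein-coding ones. Of 598 long non-coding RNA genes tested 387 (64.7%) had folds below 1, with a median log2 fold of -0.12, against 56.7% and -0.03 for 11237 protein-coding genes. Of the long non-coding genes 23 (3.85%) were called higher and 49 (8.19%) lower; of the protein-coding genes 1.32% and 1.02%. Depth differs between the types. Within 30 to 126 counts the long non-coding genes were called lower in 9.68% and higher in 4.05% of 444, and the protein-coding genes in 4.44% and 4.55% of 1846. At 127 counts or more, medians were -0.10 over 154 long non-coding genes and -0.03 over 9391 protein-coding genes. Other non-coding types did not all lie lower, with medians of -0.11 over 45 miscellaneous RNAs, -0.03 over 28 miRNA genes and 0.05 over 16 tRNA genes. LOC105243374, within the span of Kirrel3 on the opposite strand, had 13 counts in the control and 61 with strain, a fold of 4.81 (2.62 to 9.55), and 1500017E21Rik, opposite to Hectd2, 27 and 73, a fold of 2.77 (1.76 to 4.49). LOC108167845, which overlaps Kif26b on the same strand, was 3.2-fold lower (1.73 to 6.31) on 46 and 14 counts. The transcribed pseudogene Gm14327 was 4.02-fold lower (1.82 to 10.1) on 33 and 8 counts and overlaps Zfp972. Of all 356 called genes 78 have a partner on the opposite strand and 25 overlap a gene on the same strand, and such genes are uncertain.

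Zinc finger (Zfp) genes lay below 1 in 205 of 315 members, with a median of -0.08. Intervals wholly below 1 were held by 17.1% of them, against 16.1% of all tested genes. Called lower were 7 (2.22%, against 1.48% of all) and higher 0, a share near the background. Among the 7 were Zfp300 at 1.85-fold (1.15 to 3.03), Zfp784 at 1.68-fold (1.23 to 2.32), Zfp709 at 1.64-fold (1.11 to 2.44) and Zfp964 at 1.56-fold (1.2 to 2.04). In conditioned medium the same list had a median of -0.06, with 197 of 310 members below 1, against 7170 of all 11910 genes tested there.

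Strain was also applied in conditioned medium. There 69 of 11910 tested genes (0.579%) were called higher and 101 (0.848%) lower in the library with both treatments than with conditioned medium alone. Of the 178 genes called higher with strain in ordinary medium 158 were also above the minimum in that pair; 82 of them (51.9%) lay on the same side of 1 and 12 were called the same way. The 12 were the 7 ribosomal RNA-like models and Clcn1, Meis1, Sapcd2, Top1mt and Tprg. Of the 178 called lower 148 could be compared, 84 (56.8%) on the same side and 12 called. Of those 12, 7 were the immediate early genes above, and the others included BC024063, Mir6978, Trib1 and Zfp335os. Over all genes above the minimum in both pairs, 6501 of 11758 (55.3%) lay on the same side, with both directions pooled. That share is not the background of either direction, because 4740 of the 11910 genes tested in conditioned medium lay above 1 and 7170 below. Without the 7 ribosomal RNA-like models, 75 of 151 genes called higher (49.7%) lay on the same side. Without the immediate early list, 77 of 141 genes called lower (54.6%) did. The genes singled out in this paragraph were chosen after their values were seen.

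By class, the values in conditioned medium were as follows. Of all genes tested in that pair 4740 of 11910 lay above 1 and 7170 below, with a median log2 fold of -0.03. G2 and mitosis genes lay above 1 in 49 of 63 with a median log2 fold of 0.11, and replication genes in 37 of 58 with 0.05. Interferon-stimulated genes lay above 1 in 28 of 49 with a median of 0.03, so the low position of the class in ordinary medium was not seen there. Fibrillar collagens lay above 1 in all 10, with a median of 0.13, although Col2a1 stood at 1.04 (0.631 to 1.7). The 4 osteocyte genes had a median of 0.00. The immediate early list lay below 1 in 26 of 27, with a median of -0.44. With 1 library a group the difference between the strain responses was not tested.

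**Figure D4:**
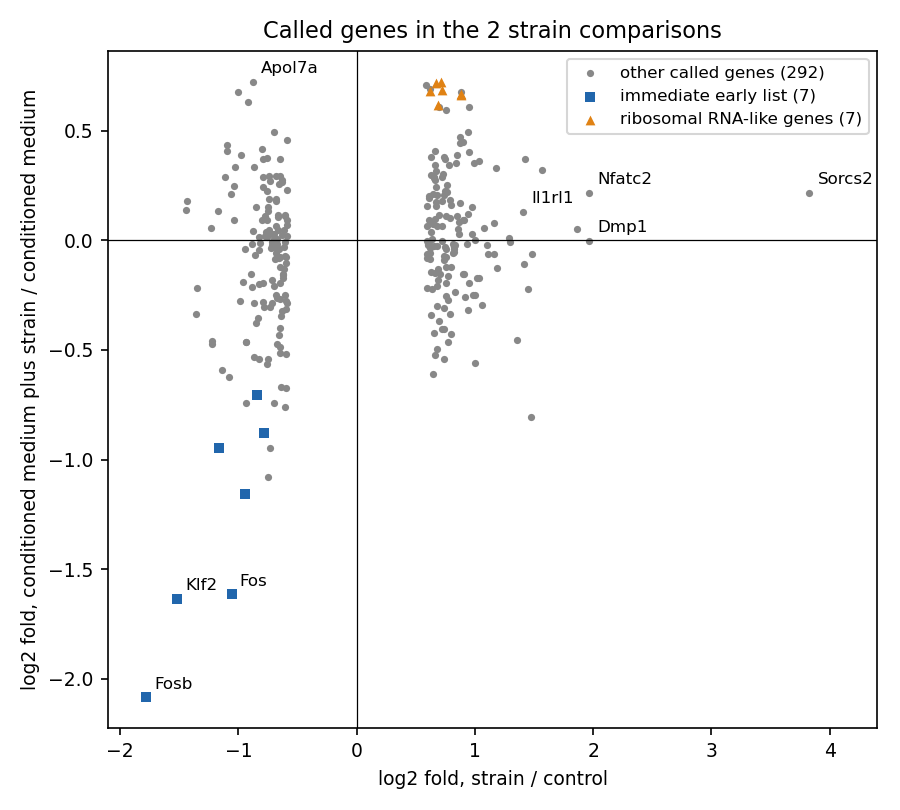
Log2 fold in conditioned medium plus strain over conditioned medium (vertical axis) against log2 fold in strain over control (horizontal axis), for the called genes that were above the count minimum in both pairs. Immediate early genes (blue squares) lie low on both axes and the 7 ribosomal RNA-like models (orange triangles) high on both, whereas Dmp1, Nfatc2 and Sorcs2 lie far to the right and close to 0 on the vertical axis.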

How the data were processed

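RNA of 4 MC3T3-E1 cultures was extracted with Trizol and made into libraries with a directional kit, per the labels' protocols. The submitters' processing notes name HISAT2 and mm9, whereas 28748 of 40033 matched genes (71.8%) start where RefSeq GRCm38.p6 has them, so positions were read as GRCm38. Which counter was used, and with what strand setting, is not given in the sources used here. The authors deposited read counts per gene and RPKM values, which equal count over length and column total to within 5.05e-06.

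Folds of count shares and 95% Clopper-Pearson intervals were computed with Python 3.11.15, numpy 2.4.6, pandas 2.3.3 and scipy 1.17.1, figures with matplotlib 3.10.9, and TMM factors with edgeR 4.0.16 in R 4.3.3. Reads can be PCR copies, so intervals cover counting error only. With 1 library a group no model was fitted. Named were the 15 called genes per direction with the interval bound farthest from 1, up to 5 called genes per list and direction, 8 osteoblast genes, and the 2 most abundant members of described lists with fewer than 2 calls. Members and lists were chosen with earlier results of these data known. Alternatives changed the scaling, count minimum, fold, interval, measure, gene class, overlap and length.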

Additional observations from a re-analysis of the deposited data

Results flagged for a closer look

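For 9 called genes the fold with strain lay on one side of 1 in ordinary medium and on the other in conditioned medium, both with intervals that excluded 1. With 1 library a group the difference between the pairs was not tested. Spp1 had a fold of 1.91 in ordinary medium and 0.988 (0.976 to 0.999) in conditioned medium, and the non-coding 1500017E21Rik 2.77 and 0.572. Prkg2, a cGMP-dependent protein kinase, had 1.98 and 0.842 (0.711 to 0.996), and Errfi1, a feedback inhibitor of EGF receptor signalling, 1.71 and 0.828. Arrdc3, an arrestin-domain protein, had 1.6 and 0.813, and Haus6, a subunit of the augmin complex of the spindle, 1.55 and 0.79. Pithd1 had 1.6 and 0.71, and Gfod1 1.56 and 0.656. Apol7a went the other way, with 0.543 in ordinary medium and 1.65 in conditioned medium. These sides rest on library totals, and other scalings were not examined gene by gene here. The Spp1 and Prkg2 intervals in conditioned medium end so close to 1 that a small change of scaling could take them past it.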

How the results depend on the processing

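Of the calls, 178 higher and 178 lower as reported, a minimum of 100 counts left 88 and 60, and no minimum gave 276 and 378. A 2-fold threshold left 39 and 41, a fold threshold nearer 1 gave 535 and 600, and an interval bound set off from 1 left 94 and 56. On log2(RPKM + 1) there were 85 and 45. A minimum of 10 counts gave 312 lower, and protein-coding genes alone 115 lower. Of the called genes with 100 counts in both pairs, 34 of 63 higher and 30 of 39 lower lay on the same side in conditioned medium. There were 388 alternative values of the 78 genes named by rule. Of these, 339 kept their call or, for uncalled genes, stayed within the counting interval. Another 44 lost the call, and 5 of uncalled genes left their interval. A reversal of side was looked for only in called genes and found in 0. The scaling shifts, at most 0.040 log2, and log2(RPKM + 1) could not reverse a called gene, so this 0 was fixed in advance. Of the lost calls, 28 came with log2(RPKM + 1), which shrinks the folds of low genes. They were those of Adamts7, Adamts12, Cacna1c, Epha1, Fabp5, Fam20a, Fstl3, Gbp7, Itga6, Itgb3, Kif2c, LOC105243374, LOC108167845, Lgr6, Panx3, Parp14, Phex, Prlr, Rsad2, Slc25a35, Slc25a45, Slc45a3, Slc4a11, Slc6a18, Unc5b, Zfp300, Zfp709 and Zfp964. Of 456 alternative list medians 29 moved beyond their interval. The medians of the interferon list (-0.32 to -0.25) and the G2 and mitosis list (0.32 to 0.38) kept their sign under every alternative. Medians close to 0 did not all do so: those of the Wnt, annexin, glycolysis, adhesion and channel lists changed sign with the scaling, those of the ERK feedback and mitochondrial tRNA lists at 100 counts, and those of the bone morphogenetic protein, respiratory chain, ribosome biogenesis and proteasome lists among genes of middle length. No paired analysis was possible because each group has 1 library. Depth limits genes near the minimum, and 3 counts in a gene of 1 kb correspond to 0.273 to 0.3 RPKM.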
